A study of Homo sapiens with 2 samples.

Results

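The CC chemokines are small secreted proteins that bind receptors on leukocytes and draw them into tissue. The genes CCL2, CCL3, CCL3L1, CCL4, CCL5 and CCL20 were followed here by their symbols in the feature table, and they are 6 of its 36601 genes. CCL2 acts through CCR2 and is known for recruiting monocytes. CCL3, its copy CCL3L1, CCL4 and CCL5 are known for recruiting monocytes and T cells. CCL20 acts through CCR6 and is known in the intestine as an epithelial product that attracts dendritic cells and lymphocytes. Transcription of these genes is commonly induced by NF-κB, which TNF-α and IL-1β activate, and that of some by factors that IFN-γ activates.

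The cells came from colon organoids grown from 1383D6, an induced pluripotent stem cell line of human origin. One library, CNT, is the untreated organoids, and the other, 3CK, is organoids exposed to IL-1β, TNF-α and IFN-γ together, 3 cytokines, over 8 days. The labels used here give no doses. There was 1 library per group, so no test across replicates was possible, and every difference below is between these 2 libraries. Intervals (95%) reflect counting error alone.

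After filtering, CNT held 2487 cells and 101831571 unique molecular identifiers (UMIs, counted molecules), and 3CK held 1398 cells and 91860414 UMIs. The median depth of a cell was 28911 UMIs for CNT and 62746 for 3CK. The libraries shared 0 cell barcodes. Cells were called epithelial when EPCAM, an epithelial adhesion protein, reached 2 UMIs per 10000. They were called mesenchymal when the collagens COL1A1, COL1A2 and COL3A1 together reached 5 per 10000 and EPCAM was under 1. CNT had 1660 epithelial and 574 mesenchymal cells, and 3CK had 1016 and 124. The remaining 253 and 258 cells are called other. Of 8 epithelial markers, 6 were at least 2-fold higher in the epithelial class of both libraries (KRT8 and KRT18 were not), and all 9 mesenchymal markers were higher in the mesenchymal class. EPCAM and the collagens of the class rule are among these markers, so for them the order follows from the rule and is no check of it. The labels call the samples colon epithelial cells, yet the epithelial class carried the hepatic marker TTR at 64857 CPM (UMIs per 1000000 UMIs of the class) in CNT and 19491 in 3CK. COL1A1 itself was lower in the mesenchymal class of 3CK (906 CPM) than of CNT (3010 CPM). Whether the class rule took in like cells of both libraries was not tested.

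All 6 chemokines were higher in 3CK than in CNT. Over all kept cells, 6 of 6 were at least 2-fold higher, against 6.96% of the 17523 genes that reached 1 CPM in CNT or 3CK. The 6 had a median log2 ratio of 7.38, and all genes one of -0.05. In epithelial cells 6 of 6 were at least 2-fold higher (8.48% of all genes, median log2 ratio of the 6 of 6.84), in mesenchymal cells 6 of 6 (6.05%, median 7.36), and in the other cells 6 of 6 (9.18%, median at least 5.97). The last median is a lower bound, since CCL4 had 0 UMIs in other cells of CNT and its ratio there used a floor of 3 UMIs. None was 2-fold lower, 0 of 6 in each case, where 11.3%, 12.1%, 16.7% and 19.7% of all genes were, in the same order. In CNT, CCL20 and CCL2 had the clearest levels, with 3449 and 1855 UMIs. CCL3L1 was lower there, with 142 UMIs. CCL3, CCL4 and CCL5 were near the counting limit, with 24, 7 and 33 UMIs. The levels count molecules captured at the 3′ end, so they are not divided by transcript length. Fewer cells of a type and less RNA per cell cannot be told apart in the sums over all cells.

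**Figure D1:**
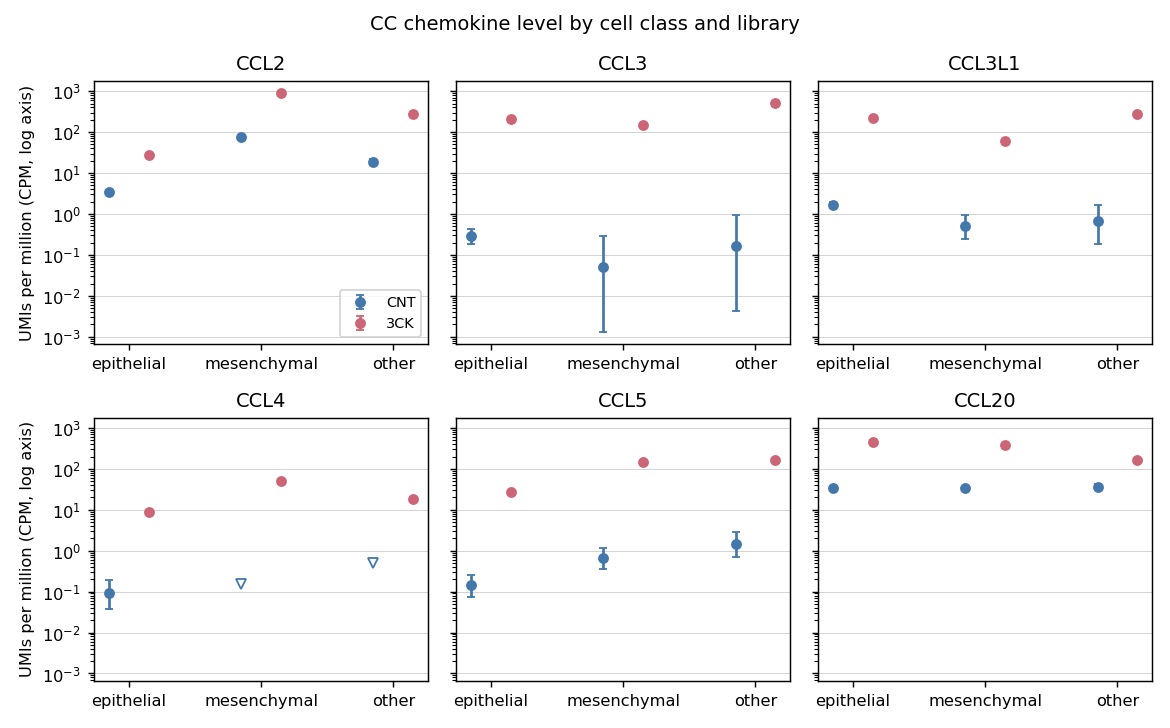
Level of each CC chemokine in CPM (log axis) in epithelial, mesenchymal and other cells of CNT (blue) and 3CK (red), 1 library each. Bars are exact Poisson intervals for counting error, and open triangles mark 0 UMIs drawn at the value of 3 UMIs. In each class and for each gene the 3CK point lies above the CNT point, by the least in the other cells for CCL20 (36.8 against 167 CPM).

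CCL20 had the most UMIs of the 6 in both libraries. Over all cells CNT had 3449 UMIs (33.9 CPM) and 3CK 36714 (399.7 CPM). The log2 ratio was 3.56 (3.51 to 3.61). In CNT its level was 33.7 CPM in epithelial, 33.6 in mesenchymal and 36.8 in other cells, with overlapping counting intervals. In 3CK the order was epithelial at 445 CPM (440.1 to 449.96), mesenchymal at 373 (361 to 386) and other at 167 (160.1 to 174), with no overlap of the counting intervals. The epithelial class held 85.0% of the CCL20 UMIs of 3CK. In CNT, 1 mesenchymal cell held 334 of the 661 mesenchymal UMIs and 1 other cell 187 of 221, and without them these classes were at 16.7 and 5.76 CPM. Without the top cell of each class of 3CK, CCL20 was at 429.9, 249 and 143 CPM in the same order.

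CCL20 lies on chromosome 2 from 227805739 to 227817564 on the plus strand of GRCh38, with 4 exons in its canonical transcript. Its promoter is shown because CCL20 carried the most molecules of the group, and those of CCL3 and CCL3L1 because these near copies were both high in 3CK. The sequences are the 250 bases before the RefSeq start in GRCh38.p14, which was found for these 3 of the 6 genes, with CCL3L1 under its current symbol CCL3L3. They are chr2:227813592-227813841 on the plus strand for CCL20, chr17:36090144-36090393 on the minus strand for the most upstream of 3 CCL3 starts, and chr17:36196759-36197008 on the minus strand for CCL3L3. Gene spans in this report are from GENCODE, and the RefSeq starts of CCL20 and CCL3 lie inside them. The CCL20 window is thus within the span given above, and the CCL3 window overlaps its gene's span. Capitals mark matches, on either strand, to the NF-κB motif searched, which is 3 G, then 5 bases of any kind, then 2 C.
CCL20: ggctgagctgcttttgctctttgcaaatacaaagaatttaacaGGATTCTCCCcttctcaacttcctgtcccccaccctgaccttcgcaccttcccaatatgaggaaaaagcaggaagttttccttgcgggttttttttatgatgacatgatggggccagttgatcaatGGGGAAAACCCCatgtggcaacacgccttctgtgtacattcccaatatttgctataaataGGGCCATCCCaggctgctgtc
CCL3: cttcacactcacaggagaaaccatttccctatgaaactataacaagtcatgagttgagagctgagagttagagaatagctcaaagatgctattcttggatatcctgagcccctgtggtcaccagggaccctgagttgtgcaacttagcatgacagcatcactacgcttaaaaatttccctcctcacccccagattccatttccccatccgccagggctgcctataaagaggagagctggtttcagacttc
CCL3L3: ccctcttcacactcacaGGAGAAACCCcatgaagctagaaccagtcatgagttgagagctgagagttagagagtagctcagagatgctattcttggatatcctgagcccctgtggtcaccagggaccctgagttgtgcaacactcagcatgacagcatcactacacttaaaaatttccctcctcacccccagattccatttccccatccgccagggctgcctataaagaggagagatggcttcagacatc

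CCL20 held 5 matches to this motif, 3 of them overlapping one another between 81 and 70 bases before the start. CCL3 held 0 at this start and CCL3L3 held 1. The motif occurs in 54.4% of 35116 promoters of this length, so a match is common. The interferon-stimulated response element (GAAA, 2 bases of any kind, GAAA, in 3.02% of promoters) had 0 matches in the 3 windows. The AP-1 motif TGANTCA (6.57%) had 0 as well, on either strand. The CCL3 and CCL3L3 promoters were identical at 233 of 256 aligned positions.

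CCL2 was the chemokine of the mesenchymal class in both libraries. It lies on chromosome 17 from 34255274 to 34257208 on the plus strand. Over all cells CNT had 1855 UMIs (18.2 CPM) and 3CK 13518 (147 CPM). The log2 ratio was 3.01 (2.94 to 3.08). Mesenchymal cells had 75.2 CPM in CNT and 885 in 3CK, other cells 18.6 and 276, and epithelial cells 3.49 and 28.0. This order of the classes was the same in both libraries, and the log2 ratio of mesenchymal over epithelial cells was 4.43 (4.24 to 4.62) in CNT and 4.98 (4.91 to 5.05) in 3CK. Mesenchymal cells held 59.7% of the CCL2 UMIs of 3CK while being 8.87% of its cells.

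CCL3 was close to the counting limit in CNT. It lies on chromosome 17 from 36088256 to 36090169 on the minus strand. CNT had 24 CCL3 UMIs (0.236 CPM) in 19 cells, and 3CK had 22478 UMIs (245 CPM) in 519 cells, a log2 ratio of 10.02 (9.45 to 10.66). In 3CK its level was 529 CPM in other, 206 in epithelial and 146 in mesenchymal cells. In the other cells, 1 cell held 3565 of the 6687 UMIs, and without it their level was 249 CPM. In CNT the 3 classes held 22, 1 and 1 UMIs for epithelial, mesenchymal and other cells.

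CCL3L1 was above CCL3 in CNT and slightly below it in 3CK. The row named CCL3L1 carries the identifier ENSG00000276085, whose current symbol is CCL3L3, and it lies on chromosome 17 from 36194869 to 36196758 on the minus strand. CNT had 142 UMIs (1.39 CPM) and 3CK had 19934 UMIs (217 CPM), a log2 ratio of 7.28 (7.04 to 7.53). In 3CK the levels were 274 CPM in other, 227 in epithelial and 60 (55.1 to 65.3) in mesenchymal cells. In the other cells 1 cell held 1599 of 3465 UMIs, and without it their level was 149 CPM, under that of epithelial cells without their top cell (219 CPM). The epithelial class held 79.9% of the CCL3L1 UMIs of 3CK.

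CCL4 was the rarest of the 6. It lies on chromosome 17 from 36103827 to 36105621 on the plus strand. CNT had 7 UMIs, all in epithelial cells, and 3CK had 1312 UMIs (14.3 CPM), a log2 ratio of 7.70 (6.65 to 9.02). Epithelial cells had 0.0919 CPM in CNT and 8.89 in 3CK. Mesenchymal cells of CNT had 0 UMIs and those of 3CK had 460, which is at least 330-fold higher against a floor of 3 UMIs over the class. Of those 460 UMIs, 393 were in 1 cell, and without it the class was at 7.41 CPM.

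CCL5 was also near the counting limit in CNT. It lies on chromosome 17 from 35871491 to 35880793 on the minus strand. CNT had 33 UMIs (0.324 CPM) and 3CK had 5291 (57.6 CPM), a log2 ratio of 7.47 (6.98 to 8.01). In 3CK it was at 162 CPM in other and 151 in mesenchymal cells, whose counting intervals overlapped, and at 26.7 in epithelial cells. In the other cells 1 cell held 824 of 2046 UMIs. Without the top cell of each class the levels were 97.2, 118 and 23.1 CPM in the same order. In CNT the same classes held 9, 13 and 11 UMIs.

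The classes therefore divided the 6 genes in 3CK. CCL2, CCL4 and CCL5 were at least 2-fold higher in mesenchymal than in epithelial cells, 3 of 6 against 19% of all genes, with log2 ratios of 4.98, 2.51 and 2.49. CCL3L1 alone was at least 2-fold lower there, 1 of 6 against 16.8% of all genes, at -1.92 (-2.05 to -1.80). CCL3 and CCL20 lay between, at -0.49 and -0.25. For CCL4 the ratio rested on a few cells. Only 6 mesenchymal cells of 3CK had any CCL4. Without the 1 cell with most CCL4 in each class the log2 ratio was 0.17. Without 10 cells of each class mesenchymal cells had 0 UMIs left, and the ratio against the floor of 3 UMIs was at most -1.33. With stricter class limits (EPCAM at least 5, collagens at least 20 per 10000 with EPCAM under 0.5) it was 0.68. For CCL3 it turned to 1.10 when all cells with EPCAM under 1 per 10000 were counted as mesenchymal, a choice added after seeing the data, under which CCL3L1 was at -0.05. Without the 10 top cells of each class, CCL5 was at 1.10, CCL20 at -2.25, CCL3 at -2.47 and CCL3L1 at -5.09. CCL20 and CCL3 were thus more than 2-fold lower in mesenchymal cells under that setting. CCL2 was at 4.58 or more under every alternative. The setting leaves out 10 of 124 mesenchymal but 10 of 1016 epithelial cells. Since the classes differ in size, the same share of each was also left out, a choice added after seeing the data. It was the 1% of cells with most UMIs of the gene (10 epithelial and 1 mesenchymal). CCL2 was then at 6.37, CCL5 at 3.33, CCL4 at 2.97, CCL3 at -0.32, CCL20 at -0.52 and CCL3L1 at -2.21. In CNT, CCL2, CCL20 and CCL3L1 reached 1 CPM in epithelial or mesenchymal cells. Of these 3, CCL2 was at least 2-fold higher in mesenchymal cells (26.1% of all genes) and CCL3L1 lower (15.1%), at -1.72 (-2.82 to -0.80). CCL3, CCL4 and CCL5 had 1, 0 and 13 mesenchymal and 22, 7 and 11 epithelial UMIs there.

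Depth differed between libraries and classes, so shares of cells were taken after each cell was thinned to 5000 UMIs. This left 1062 epithelial and 320 mesenchymal cells of CNT and 776 and 107 of 3CK. A UMI of CCL20 was found in 6.50% of epithelial cells of CNT (15.2% unthinned) and 44.2% of 3CK (74.5% unthinned). In mesenchymal cells the CCL20 share was 4.69% in CNT and 19.6% in 3CK (10.8% and 55.6% unthinned). Of the 6 genes, CCL20 was thus the one found in the largest share of epithelial cells of 3CK.

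For CCL2 the mesenchymal share was 12.5% in CNT and 47.7% in 3CK (18.3% and 65.3% unthinned). The epithelial CCL2 share was 1.41% and 4.51% (5.30% and 17.4% unthinned). COL1A1, a gene that epithelial cells should lack, had a UMI in 7.09% of thinned epithelial cells of 3CK and in 79.4% of mesenchymal cells. The median depth of these classes before thinning was 72198 and 65363 UMIs. COL1A1 is part of the mesenchymal class rule, and the epithelial rule sets no limit on collagens. Its epithelial share can thus hold cells with COL1A1 of their own and is not a measure of free RNA alone. The CCL2 share of epithelial cells lay under this COL1A1 share. By level, epithelial cells had 28.0 CPM of CCL2 and 13.0 of COL1A1, and 26 of them held at least 10 CCL2 UMIs each before thinning. Whether the epithelial CCL2 was free RNA was not tested.

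CCL3L1 was found in 1.04% of epithelial cells of CNT and 25.9% of 3CK (5.24% and 53.7% unthinned), and in 0.313% and 7.48% of mesenchymal cells (1.05% and 34.7% unthinned). CCL3 was found in 0.188% and 15.1% of epithelial cells (1.02% and 38.4% unthinned). In mesenchymal cells of CNT, CCL3 was in 0 of 320, which by a limit of 3 cells allows a share of up to 0.938%. In those of 3CK it was in 17.8% (0.174% and 36.3% unthinned). The copy CCL3L1 thus reached more epithelial than mesenchymal cells of 3CK, and for CCL3 the intervals of the classes overlapped (12.6% to 17.8% and 11.0% to 26.3%).

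CCL5 was found in 4.64% of epithelial and 15.0% of mesenchymal cells of 3CK (16.3% and 37.1% unthinned). CCL4 was found in 1.16% and 1.87% of these classes (3.74% and 4.84% unthinned). The epithelial shares of CCL5 and CCL4 were under the COL1A1 share of 7.09%, which is no like background for them. In mesenchymal cells of 3CK, COL1A1 was at 906 CPM, CCL5 at 151 and CCL4 at 50.5. Epithelial cells had 13.0, 26.7 and 8.89 CPM in the same order. Before thinning, 33 epithelial cells held at least 10 CCL5 UMIs each and 11 at least 10 CCL4 UMIs. Whether epithelial CCL5 and CCL4 were free RNA was not tested. At this depth the CCL4 shares of the classes could not be told apart.

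**Figure D2:**
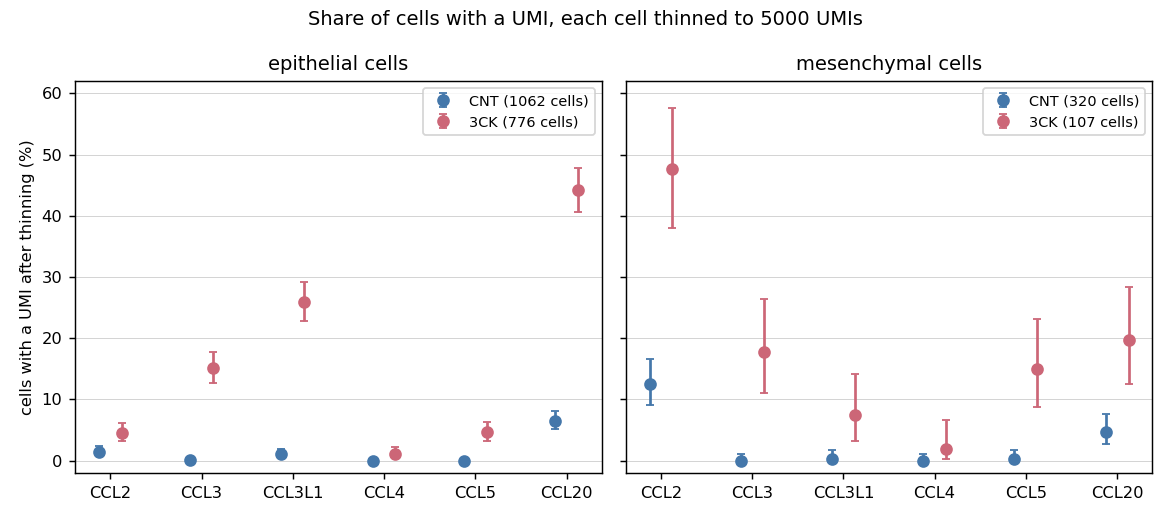
Share of cells with at least 1 UMI of each chemokine in epithelial (left) and mesenchymal (right) cells of CNT (blue) and 3CK (red), each cell thinned to 5000 UMIs. Bars are exact binomial intervals. CCL20 is highest among epithelial cells of 3CK (44.2%) and CCL2 among mesenchymal cells of 3CK (47.7%).

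Most CNT cells showed no chemokine and most 3CK cells showed at least 1. After thinning, 1386 of 1544 CNT cells (89.8%) and 397 of 1063 3CK cells (37.3%) had no UMI of any of the 6. In 3CK, 411 cells had a UMI of 1 of the genes, 180 of 2, 55 of 3, 15 of 4, 4 of 5 and 1 of all 6. In CNT, 152 cells had 1 and 6 cells had 2.

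Each transcript was held by few cells. In 3CK, 50% of the CCL4 UMIs were in 3 of 1398 cells, of CCL5 in 12, of CCL3 in 15, of CCL2 in 16, of CCL3L1 in 24 and of CCL20 in 47. The same share of EPCAM was in 175 cells, of the class I subunit B2M in 259 and of all UMIs in 318. The chemokine UMIs were therefore in fewer cells than those of both other genes and than the RNA as a whole. The interferon-induced chemokine CXCL10 reached it with 63 cells and the cytokine IL1B with 5, so such concentration was not particular to these genes.

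The classes of these top cells differed between the genes. Epithelial cells were 72.7% of all cells of 3CK. Of the 47 CCL20 cells 41 were epithelial, of the 24 CCL3L1 cells 21, and of the 15 CCL3 cells 11. Of the 16 CCL2 cells 11 were mesenchymal and 1 was epithelial. The 12 CCL5 cells were 3 epithelial, 5 mesenchymal and 4 other, and the 3 CCL4 cells were 1 of each.

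**Figure D3:**
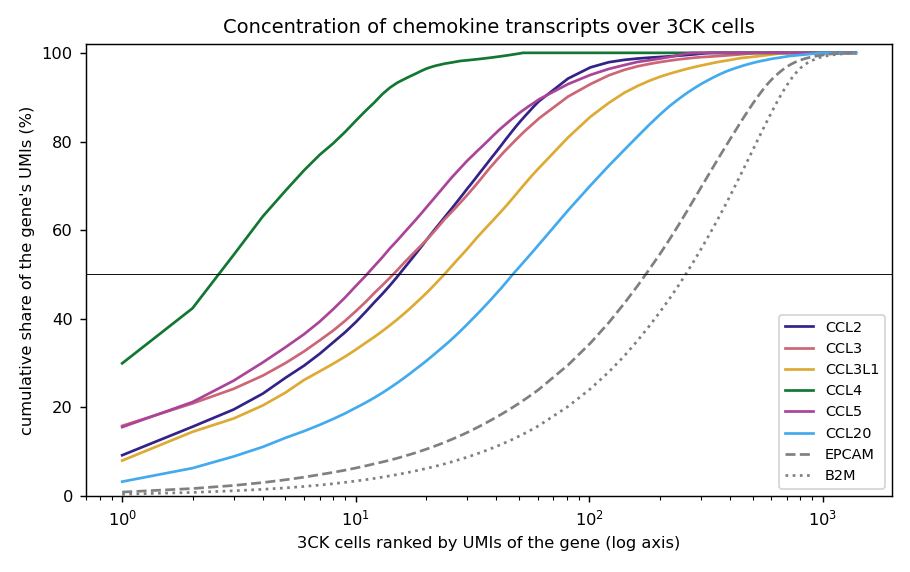
Cumulative share of each gene's UMIs (vertical axis, %) over 3CK cells ranked by their UMIs of that gene (horizontal log axis), for the 6 chemokines in colour and EPCAM and B2M in grey. The thin line marks 50%, which CCL4 reaches with 3 cells, CCL20 with 47 and EPCAM with 175.

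Among single cells with at least 10000 UMIs the range was wide. In 730 epithelial cells of 3CK, CCL20 ran from 0 to 8889 CPM with a median of 78.0 and a 90th percentile of 1152. CCL3L1 ran from 0 to 4986 with a median of 16.6. The medians of CCL2, CCL3, CCL4 and CCL5 in these cells were 0. In 106 mesenchymal cells of 3CK, CCL2 ran from 0 to 11731 CPM with a median of 172, and CCL20 from 0 to 4522 with a median of 13.7.

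The cell richest in CCL3 was of the other class. It held 3565 CCL3 UMIs (15.9% of the library's), 1292 of CCL3L1, 158 of CCL4, 1090 of the cytokine IL1B and 1197 of CXCL10. It had 0 UMIs of EPCAM, of the leukocyte gene PTPRC and of the monocyte gene CD14, and 5 of TYROBP and 17 of CD68, which are myeloid genes. The cell richest in CCL4, a mesenchymal one, had 23 UMIs of CD14 (9.66% of the library's), 4 of CD68 and 0 of PTPRC and TYROBP. Leukocytes are the textbook source of CCL3 and CCL4, so PTPRC and a list of 17 myeloid markers were read in the top cells. The PTPRC count was 0 in the top cells of CCL2, CCL3, CCL3L1, CCL4 and CCL5, and 1 in those of CCL20. The summed myeloid level was 191 to 238 CPM in the top cells of the 6 genes and 250.1 to 253 in the remaining cells. In the top cells 7 to 14 of the 17 markers were detected. By single cells the order was mostly the other way. The median top cell had 147 CPM for CCL2, 159 for CCL3, 89.5 for CCL3L1, 188 for CCL4, 49.4 for CCL5 and 124 for CCL20. Over all cells of 3CK the median cell had 56.7 CPM and the highest 29088.5. C1QA, ITGAM and FCGR3A were at 0 in each of these sets of top cells. They were also under 1 CPM in the epithelial and in the mesenchymal class of 3CK. PTPRC was found in 13 of the 1398 cells of 3CK. Counts of 0 for such rare transcripts in so few cells cannot decide whether the top cells were leukocytes. By class the myeloid sum was 153 CPM in epithelial, 87.8 in mesenchymal and 333 in other cells of CNT, and 170.01, 231 and 707 in 3CK. The part of these markers in the levels of the other class and in mesenchymal CCL4 was not tested.

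In all of 3CK, 13 cells had PTPRC, with 41 UMIs, of which 28 were in 1 mesenchymal-class cell with 203 UMIs of TYROBP and 88 of AIF1, both myeloid genes. That cell held 155 UMIs of CCL2, 1 of CCL3 and 0 of CCL3L1, CCL4, CCL5 and CCL20. Cells with a PTPRC UMI held 2.89% of CCL2, 0.116% of CCL3, 0.0702% of CCL3L1, 0% of CCL4, 0.491% of CCL5 and 1.30% of CCL20 UMIs. The 6 genes were all at least 2-fold higher in 3CK without these cells too.

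CCL3 and CCL3L1 are near copies, and their canonical transcripts were identical at 95.7% of aligned positions. No window of 91 bases in the last 500 bases of CCL3 was shared with CCL3L1, of 410 windows (the window length was chosen here, since the read length is not given in the sources used here). How reads that match both were counted is not given there either, so the split between the copies is uncertain. CCL3 made up 14.5% (9.49% to 20.7%) of the UMIs of both in CNT and 53.0% (52.5% to 53.5%) in 3CK. Within 3CK it made up 47.6% in epithelial, 70.9% in mesenchymal and 65.9% in other cells.

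Single cells differed more than the classes. Of 271 cells of 3CK with at least 10 UMIs of both copies together, 55 had over 90% CCL3, 84 had under 10% and 132 lay between. The median was 36.6% with quartiles of 6.16% and 82.2%. CCL4 and its neighbour copy CCL4L2 showed a like split between the classes, with CCL4 at 41.4% of the pair in epithelial, 96.0% in mesenchymal and 90.5% in other cells of 3CK. CCL4 and CCL4L2 shared 20 of 410 such windows (4.88%), so this pair is less certain. Of the mesenchymal CCL4 UMIs, 85.4% were in the 1 cell named above.

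Within this library, CCL3L1, CCL4 and CCL5 were found in a larger share of epithelial cells with CCL3 than without. Among thinned epithelial cells of 3CK, 117 had a CCL3 UMI and 659 had none. CCL3L1 was found in 53.0% of the first and 21.1% of the second, CCL5 in 11.1% and 3.49%, and TNF in 15.4% and 3.03%. All 9 epithelial cells with CCL4 had CCL3. For CCL20 the shares were 49.6% and 43.2%, with overlapping intervals.

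In mesenchymal cells CCL3L1 was found in 4 of 19 cells with CCL3 (21.1%) and 4 of 88 without (4.55%), with overlapping intervals. Only 2 mesenchymal cells had CCL4, each with CCL3. Of the 19 cells with CCL3 68.4% had IL1B and 84.2% had CXCL8, a neutrophil chemokine, against 18.2% and 30.7% of 88 cells without CCL3. CCL20 was found in 47.4% and 13.6% of these cells. Among epithelial cells with CCL5, 88.9% had CXCL10 against 55.1% of those without. All these cells came from 1 library and are not replicates.

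**Figure D4:**
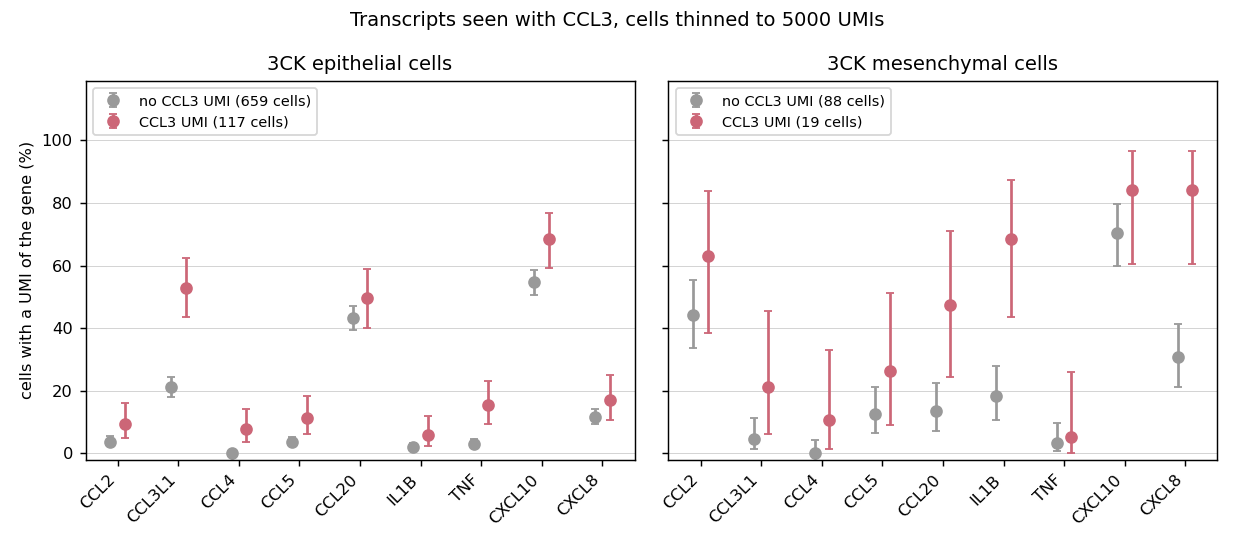
Share of thinned 3CK cells with a UMI of 9 genes (horizontal axis) among cells with a CCL3 UMI (red) and without (grey), in epithelial (left) and mesenchymal (right) cells. Bars are exact binomial intervals. CCL3L1 separates the epithelial groups (53.0% against 21.1%), and CXCL8 the mesenchymal groups (84.2% against 30.7%).

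Correlations over deep cells of 3CK gave the same pairs and are a description. Over 730 epithelial cells Pearson's r of the log level was 0.55 for CCL3 with CCL3L1, 0.44 for CCL3 with CCL4 and -0.02 for CCL5 with CCL20. Over 106 mesenchymal cells it was 0.66, 0.54 and 0.03 for the same pairs. Cells of 1 library share their free RNA and preparation.

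Outside the 6 genes, the transcripts most like each in its higher class were named by the same measure. Those most like CCL20 over the 730 epithelial cells were the CXC chemokines CXCL5 (r = 0.55) and CXCL3 (0.52), then TNIP3, SRD5A3 and CXCL1. For CCL3 they were PLAUR (0.37), C15orf48, EDN1, SOD2 and DEFB4A, and for CCL3L1 C15orf48 (0.33), PLAUR, CARHSP1, EDN1 and JOSD2. PLAUR, C15orf48 and EDN1 were thus named for both copies.

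Over the 106 mesenchymal cells, CCL2 was most like BATF3 (0.53), CXCL1, IL6, BID and CXCL8. CCL5 was most like IFIT2 (0.49), an interferon-induced gene, then RELA, CCL8, SQOR and LGALS9. For CCL4 the genes were TNC (0.52), TNFAIP8, TNFRSF11B, GLTP and HSPA1A, which rest on the 6 mesenchymal cells that had any CCL4.

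Epithelial cells were also split by the hepatic transcript TTR. In epithelial cells of 3CK with TTR at least 100 per 10000, between 20 and 100, and below 20, CCL20 was at 450.2, 441 and 432 CPM. CCL3L1 was at 262, 212 and 118 CPM in the same order, and CCL3 at 178, 248 and 221. CCL5 was at 22.9, 25.6 and 45.6 CPM. Single cells weighed on these values: without the top cell of each group CCL20 was at 432, 400.1 and 315 CPM, CCL3L1 at 247, 187 and 76.9, CCL3 at 161, 217 and 163, and CCL5 at 19.9, 17.6 and 18.0. CCL3L1 kept its order of levels without those cells, and CCL5 did not.

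Of 20 other CC chemokines in the table, 8 reached 1 CPM, and 5 of them were at least 2-fold higher in 3CK and 2 lower (6.96% and 11.3% of all genes). CCL8, a monocyte attractant, was at 0 UMIs in CNT and at 544 in 3CK, which is a log2 ratio of at least 7.65. CCL4L2 had a log2 ratio of 6.10, CCL25 of 3.11, CCL7 of 1.93 and the mucosal chemokine CCL28 of 2.48 (4.09 and 22.8 CPM). CCL15 had 25.8 CPM in CNT and 15.0 in 3CK, at -0.78. The neighbouring gene CCL14 was at -1.13. CCL26, which attracts eosinophils, had the smallest ratio, -1.25. The higher level in 3CK was thus not common to all CC chemokines measured.

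Receptors of these chemokines had few molecules. For CCR2, the receptor of CCL2, CNT showed 0 UMIs and 3CK 1. For CCR1, which binds CCL3 and CCL5, the counts were 26 and 63. CCR6, the receptor of CCL20, was seen with 158 UMIs in CNT and 299 in 3CK, at a log2 ratio of 1.07 (0.79 to 1.36). Of 14 receptor genes 6 reached 1 CPM, and 4 of these were at least 2-fold higher in 3CK and 0 lower (6.96% and 11.3% of all genes). The largest ratio was that of CCRL2 (2.13) and the smallest that of ACKR2, a scavenging receptor (0.47), and CCR10, the receptor of CCL28, was at 0.75 (6.34 and 10.7 CPM).

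**Figure D5:**
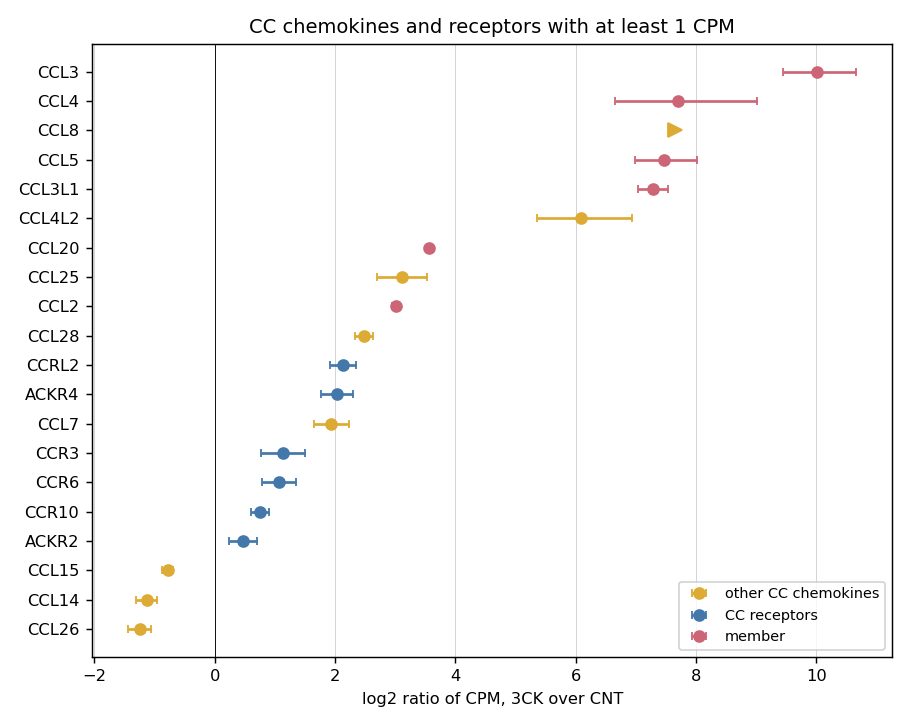
Log2 ratio of CPM, 3CK over CNT, for the 6 CC chemokines (red), other CC chemokines (yellow) and CC receptors (blue) with at least 1 CPM in either library. Bars are counting intervals, and the arrow marks a lower bound. CCL3 is highest at 10.02, and CCL26, CCL14 and CCL15 lie below 0.

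Of 21 genes of the signalling upstream of these chemokines, all reached 1 CPM, and 9 were at least 2-fold higher in 3CK and 2 lower (6.96% and 11.3% of all genes), with a median log2 ratio of 0.84. IRF1, a factor induced by IFN-γ, had the largest ratio at 4.01 (23.3 and 376 CPM). The NF-κB inhibitors TNFAIP3 and NFKBIA, themselves NF-κB targets, were at 2.32 and 1.74. The NF-κB subunits NFKB1, NFKB2, RELA, RELB and REL were at 0.59, 0.84, 0.65, 0.93 and 0.47, all under 2-fold. Their regulator NFKBIZ was at 1.16. The transcription factors ATF3 and CEBPB were at 1.80 and 1.32, CEBPD and JUNB at 0.80 and 0.27, and FOS at -0.96. Of the receptors of the added cytokines, TNFRSF1B was at 2.74, TNFRSF1A at 0.52, IFNGR1 at 1.82 and IFNGR2 at 0.36. The IL-1 receptor IL1R1 was at -1.38, the smallest ratio of the list, and its partner IL1RAP at -1.06. These ratios are over all kept cells, of which mesenchymal cells were 23.1% in CNT and 8.87% in 3CK. IL1R1 was at 51.7 CPM in mesenchymal and 6.12 in epithelial cells of 3CK. The part of the cell mixture in its ratio was not tested. Within epithelial cells 10 of the 21 genes were at least 2-fold higher and 1 lower (8.48% and 12.1% of all genes). Within mesenchymal cells 8 were higher and 1 lower (6.05% and 16.7%).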

How the data were processed

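Single-cell RNA libraries (10x 3′ v3.1, per the labels' protocols) of 1 CNT and 1 3CK culture were used, loaded with about 8300 cells each. The deposited matrices are raw counts of UMIs, which the authors left unscaled, for each gene in each barcode. The submitters' processing notes name Cell Ranger 7.1.0 and GRCh38, and the annotation release is not given in the sources used here. Barcodes with at least 500 genes and at most 20% mitochondrial UMIs were kept, which removed 412 CNT and 52 3CK barcodes for genes and 306 and 175 for mitochondrial share. The highest Scrublet scores (scanpy 1.11.5) were removed at 0.8% per 1000 barcodes, 52 and 16 barcodes.

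UMIs were summed per class and scaled to CPM by all UMIs. Sums carry exact Poisson intervals, ratios exact binomial and shares Clopper-Pearson intervals. In CNT 3 UMIs are 0.0295 CPM over all cells and in 3CK 0.0327. Ratios against 0 UMIs use a floor of 3 UMIs. No paired or replicated test exists. TMM factors (edgeR 4.0.16) and size factors (DESeq2 1.42.0) were alternatives for scaling. The code was tested on simulated data. Coordinates of genes are from GENCODE in GRCh38.

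All 6 members were named. Of each list, genes with at least 10 CPM and those with the largest and smallest ratio were named, and for each chemokine the 5 genes with the highest Pearson correlation of log1p UMIs per 10000 among genes with at least 20 CPM. A gene and a motif that these rules cover are not reported here. Genes of the lists outside this rule (CCL25, CCL7, CCL14, CCR1, CCR2, CCR6) were chosen after their values were seen. The members, lists and rules were chosen with earlier results of these data known.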

Additional observations from a re-analysis of the deposited data

How the results depend on the processing

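Alternatives were other cell filters, no doublet removal, TMM and size factors, equal weight per cell, other class limits, deep cells only, and leaving out the 10 cells with most UMIs of a member. Chosen after seeing the data were: mesenchymal cells without the collagen rule, no cells with PTPRC, and no top cell or no top 1% of cells by UMIs of a member. The count of members at least 2-fold higher in 3CK was 6 under every alternative run for all and epithelial cells, and 5 or 6 for mesenchymal cells (CCL4 then had no ratio). For mesenchymal over epithelial cells in 3CK it was 2 to 4 (3 under the settings of the results). The median log2 ratio over all cells was 6.73 without the 10 top cells and 6.42 without the top 1% (7.38 with them), and some ratios in both are bounds against 3 UMIs. Of 286 alternative values of 24 member ratios 2 changed sign, both of mesenchymal over epithelial cells in 3CK: CCL4 at most -1.33 without its 10 top cells, a bound since 0 mesenchymal UMIs were left, and CCL3 at 1.10 without the collagen rule. In all, 52 of them moved over 1.5-fold. The largest shift by scaling was 0.20 (log2), in mesenchymal cells with size factors. For CCL4 in mesenchymal cells of 3CK over CNT, no ratio could be formed without the top cells or with equal weight. No paired analysis was possible because each group has 1 library, and no replicate could be left out.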

Other observations

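Smaller subsets of the classes gave further values, which rest on few cells and are descriptions. In 16 epithelial cells of 3CK with the enterocyte genes FABP2 and RBP2 together at 5 or more per 10000, CCL20 was at 1634 CPM, and 1193 without the top cell. In 108 such cells of CNT it was at 63.9 CPM, and 42.8 without the top cell. CCL3L1 was at 229 CPM in these 3CK cells, and 95.8 without the top cell, and CCL3 at 8.88.

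In 37 epithelial cells of 3CK with the cell-cycle genes MKI67 and TOP2A together at 2 or more per 10000, CCL20 was at 327 CPM, CCL3 at 131 and CCL3L1 at 40.8, and without the top cell of each at 225, 12.3 and 27.7. In 17 such mesenchymal cells CCL2 was at 1062 CPM, and 911 without the top cell. In 8 mesenchymal cells of 3CK with the smooth muscle genes DES, ACTG2 and MYH11 together at 5 or more, CCL2 was at 1355 CPM, CCL3 at 519 and CCL4 at 849, and without the top cell of each at 684, 137 and 0.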
